A study of Mus musculus with 9 samples.

Results

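The p53 pathway and apoptosis genes considered here are 35 genes listed by symbol: the p53 family, genes that p53 is known to switch on, the death-promoting side of the BCL2 family, and the factors that activate or restrain caspases or cut DNA downstream of the mitochondria. They are taken by symbol, with no threshold on a measured value, although the list was drawn up with earlier results of these data known. For each the brightest probe set, by its mean on the 9 arrays, stood for the gene. Of the 35 genes, 31 had a listed probe set and are called measured, among 24727 genes in all; Trp53, Bax, Gdf15 and Trp53inp1 were not analysed here. The 31 comprised 2 members of the p53 family, 13 p53 targets outside the BCL2 family, 7 BCL2 family genes, and 9 genes of caspase activation and mitochondrial death.

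The study profiled whole retina of mice at postnatal day 8 (P8) on an Affymetrix whole-transcript array, with 3 arrays in each of 3 groups. The groups were wild type (WT), knockout of the retinoblastoma gene (Rb KO), and knockout of Rb together with its relative p107 (Rb/p107 DKO, DKO below), all on a mixed C57Bl/6x129SvJ background and with no other allele or agent named. The labels do not say how Rb was deleted, in which cells, or whether an array held 1 animal or several, so how many cells of a knockout retina kept Rb is not known here. All values are log2 intensities, on which a difference of 1 is a doubling. In a whole-tissue sample, fewer cells of a type and less RNA per cell cannot be told apart.

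The p53 protein is a transcription factor that the ubiquitin ligase Mdm2 keeps scarce until DNA damage or oncogenic signals stabilise it, after which it switches on genes for cell-cycle arrest, repair, metabolism and death. In the mitochondrial death pathway, BH3-only proteins of the BCL2 family free Bax and Bak1 to open the outer mitochondrial membrane, released cytochrome c joins Apaf1 to activate Casp9, and Xiap blocks caspases unless Diablo displaces it. Rb restrains E2F factors, and the retina without Rb is known for ectopic division and for the death of several neuron types; Trp73 and Apaf1 are known E2F targets as well as parts of these pathways.

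Several features of the arrays bear on every result. A probe set was taken as above background on an array when it exceeded the 95th percentile of that array's negative control probe sets, which was 7.94 to 8.5. The separation of positive from negative controls (the fraction of pairs in which the positive control read higher) was 0.9445, 0.9537 and 0.9324 in WT. It was 0.9285 to 0.9353 in Rb KO and 0.9272 to 0.9357 in DKO. The genes above background were 31.75%, 36.02% and 28.16% in WT, 26.89% to 29.62% in Rb KO and 28.04% to 30.55% in DKO. Control separation thus partly followed group, and its part in the differences from WT cannot be fully told apart. Rb1, the targeted gene, read 10 to 10.46 in WT, 9.85 to 10.02 in Rb KO and 9.74 to 10 in DKO at the brightest of its 3 probe sets. The log2 difference from WT was -0.31 in Rb KO (SE 0.117, limma adjusted p = 0.08, not called). In DKO it was -0.36 (adjusted p = 0.0427, called lower). The array readings overlapped between WT and Rb KO but not between WT and DKO. The p107 gene, Rbl1, was not analysed here. DKO replicate 2 stood apart from the others, with Xist at 5.47 against 11.44 to 12.15 and the highest lens gene signal (a mean over 7 lens genes of 9.27). Lens signal was not confined to that array: the list mean was 7.82 to 9.27 in the DKO arrays, above the 7.01 to 7.3 of WT and 7.15 to 7.58 of Rb KO, and 4 of the 7 lens genes were called higher in DKO. Marker genes of several cell types also differed from WT: 5 of 5 measured cycling-cell genes were called higher in both mutants (list mean 6.6 to 6.85 in WT, 10.02 to 10.5 in Rb KO, 10.46 to 10.72 in DKO), and 6 of 6 rod genes were called lower (11.83 to 11.9, 10.13 to 10.97, and 9.93 to 10.77). Of 9 microglia and macrophage genes, 6 were called higher in Rb KO and 5 in DKO (list mean 7.16 to 7.31, 7.51 to 8.03, and 7.74 to 8.13), although only Csf1r, C1qb and Cd68 were above background in any array. All 7 pigment epithelium genes were called lower in both mutants (list mean 8.32 to 8.68 in WT, 7.18 to 7.45 in Rb KO, 7.1 to 7.28 in DKO), as were 4 of 6 endothelial genes in Rb KO and 5 in DKO (8.54 to 8.92, 8.09 to 8.24, and 7.76 to 8.09). The part of these shifts in the results below was not tested.

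Listed genes were called in both directions in the mutant retinas. In Rb KO against WT, 7 of the 31 measured members were called higher and 6 lower at an adjusted p below 0.05 (limma, Benjamini-Hochberg over all 24727 genes), where 10.1% of all genes were called higher and 14% lower. In DKO against WT, 7 were called higher and 5 lower, where the shares over all genes were 12.1% and 16.9%. The genes called lower over the whole table fell from 3471 to 2223 in Rb KO without Rb KO replicate 2, and from 4170 to 2722 in DKO without DKO replicate 1. Without WT replicate 2 they rose to 4092 in Rb KO and 4748 in DKO. The median log2 difference over the members was -0.047 in Rb KO and -0.038 in DKO, beside -0.052 and -0.06 over all genes tested. Over the 3 comparisons 14 members were called at least once and 17 never. The share of all genes called at least once was not counted, so the 14 cannot be set against it. Both comparisons use the same WT arrays, so their values are given side by side and are not independent. The arrays of the compared groups did not overlap for any called member. This comes from the same readings as the calls and is no separate support, and its share over all called genes was not counted. Without DKO replicate 2 the counts were 7 higher and 5 lower in Rb KO, and 6 higher and 5 lower in DKO.

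Detection limits how these counts can be read. Of the 31 members, 9 were above background in all 9 arrays, 8 in 1 to 8 arrays, and 14 in none. Of the 7 called higher in Rb KO, Trp73, Eda2r, Tnfrsf10b and Bik were below background in every array of both groups; for these the readings order the groups but give no measured fold. All 6 called lower in Rb KO were above background in at least 1 array of each group.

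**Figure D1:**
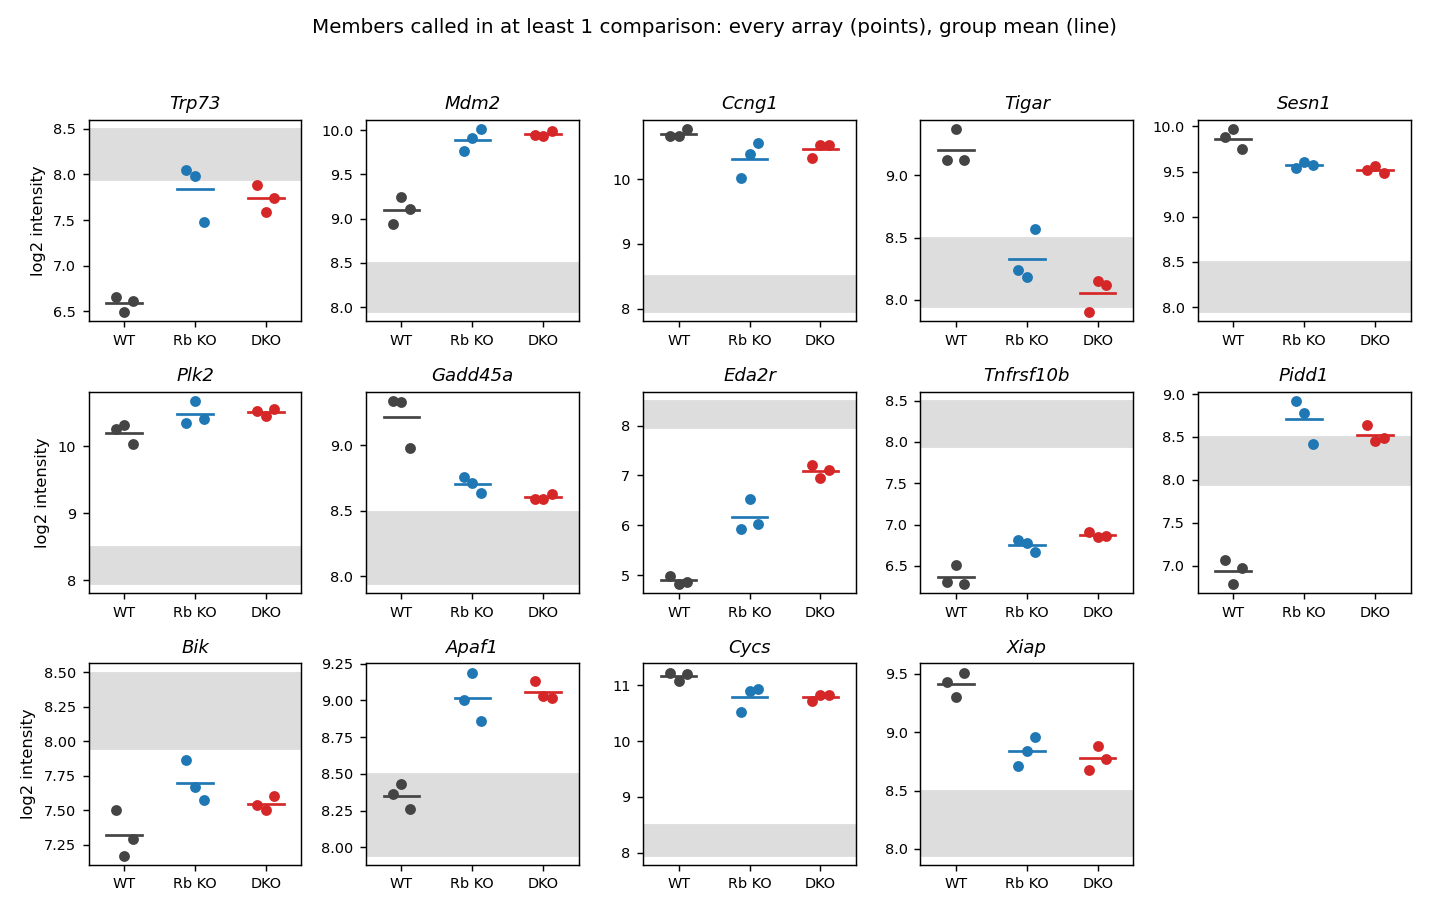
Log2 intensity (vertical axes, each scaled to its gene) of the 14 members called in at least 1 comparison, with 1 point per array, a line at the mean of each group of 3 arrays (WT, Rb KO and DKO along the horizontal axes), and a grey band for the range of the background percentile over the 9 arrays (7.94 to 8.5). Mdm2 and Apaf1 lie higher in both mutants than in WT, Tigar and Xiap lower, and Eda2r steps up from WT to Rb KO to DKO below the band.

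In the p53 family, Trp73, which encodes a p53 relative that can induce many p53 targets, was called higher in both mutants, and Trp63 was not called. Trp73 read 6.66, 6.49 and 6.61 in WT, 8.05, 7.98 and 7.48 in Rb KO, while the DKO arrays read 7.88, 7.59 and 7.74. Every mutant array lay above every WT array, and the mutant groups overlapped each other. The fitted difference was 1.25 (SE 0.139, adjusted p = 1.15e-04) in Rb KO and 1.15 (adjusted p = 1.52e-04) in DKO, but no array was above background, so neither is a measured fold. Trp63, which is known for its role in stratified epithelia, read 5.24 to 5.46 throughout and was below background on all arrays.

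Among the 13 measured p53 targets outside the BCL2 family, 4 were called higher and 4 lower in Rb KO, and 5 higher and 3 lower in DKO. The median log2 difference of the 13 was -0.11 in Rb KO and -0.077 in DKO, so that the set had no common direction. Those called higher were Mdm2, Pidd1, Eda2r and Tnfrsf10b in both mutants and Plk2 in DKO. Those called lower were Tigar, Gadd45a and Sesn1 in both mutants and Ccng1 in Rb KO.

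Mdm2, the ubiquitin ligase that p53 induces and that in turn degrades p53, had the largest rise among the 9 members that were above background in all arrays. Mdm2 read 8.94, 9.24 and 9.11 in WT, 9.76, 9.91 and 10.01 in Rb KO, then 9.95, 9.93 and 9.99 in DKO. The lowest mutant array was above the highest WT array, and the 3 DKO arrays fell within the range of the Rb KO arrays. Its level was 1.74-fold higher in Rb KO (log2 0.80, SE 0.093, adjusted p = 1.57e-04) and 1.81-fold higher in DKO (0.86, adjusted p = 7.33e-05).

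Pidd1, the death-domain scaffold on which Casp2 is activated, went from below to above background. It read 7.07, 6.79 and 6.98 in WT, 8.92, 8.78 and 8.42 in Rb KO, while the DKO arrays read 8.64, 8.45 and 8.49. All 6 mutant arrays were above background and no WT array was. Against the WT background the rise was at least 1.47-fold in Rb KO (fitted log2 difference 1.76, SE 0.125, adjusted p = 4.38e-06) and at least 1.3-fold in DKO (1.58, adjusted p = 7.06e-06). These bounds set the mutant mean against the background percentile of the WT arrays and leave out the spread between arrays.

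Both TNF-receptor family members that p53 induces and that were called, Eda2r and Tnfrsf10b, stayed below background. Eda2r, the receptor for ectodysplasin A2, read 4.99, 4.82 and 4.87 in WT, 5.93, 6.52 and 6.02 in Rb KO, then 7.2, 6.95 and 7.11 in DKO. The groups formed 3 separate steps, and the fitted differences from WT were 1.26 (SE 0.139, adjusted p = 1.02e-04) in Rb KO and 2.19 (adjusted p = 1.29e-06) in DKO. The median of the negative controls was 5.52 to 5.83, so WT lay below it and both mutants above it. Tnfrsf10b, the mouse death receptor for TRAIL, read 6.31, 6.51 and 6.28 in WT, 6.81, 6.78 and 6.67 in Rb KO, while the DKO arrays read 6.91, 6.85 and 6.86. Its groups likewise did not overlap, with a fitted difference of 0.39 (SE 0.081, adjusted p = 0.00542) and 0.51 (adjusted p = 8.66e-04). For neither gene is a fold given, since no array of any group was above background.

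Plk2, a polo-like kinase that p53 induces, was called higher in DKO by a small margin. Plk2 read 10.26, 10.32 and 10.03 in WT, 10.35, 10.68 and 10.41 in Rb KO, then 10.53, 10.45 and 10.56 in DKO. Both mutants lay above WT in every array, by 1.21-fold in Rb KO (log2 0.28, SE 0.104, adjusted p = 0.0802) and by 1.24-fold in DKO (0.31, adjusted p = 0.0444). The DKO call was lost on dropping WT replicate 1, WT replicate 3, Rb KO replicate 3 or any 1 array of the DKO group (adjusted p = 0.0556 to 0.141), when each array was shifted to a common median (0.0531) and in the fit with the replicate number as a block (0.0519). Leaving out WT replicate 2 brought the Rb KO difference past the threshold (0.0479), as did leaving out dim genes (0.0399), a renewed quantile normalization (0.0148) and the control-separation covariate (0.0198), and that covariate raised the DKO value from 0.31 to 0.50.

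Tigar, an enzyme that lowers glycolytic flux and protects from oxidative stress, had the largest fall among the measured members in both mutants. Tigar read 9.12, 9.37 and 9.12 in WT, 8.24, 8.18 and 8.57 in Rb KO, while the DKO arrays read 7.90, 8.15 and 8.12. Each group lay in its own range, with WT highest and DKO lowest. The level fell 1.83-fold in Rb KO (log2 -0.87, SE 0.12, adjusted p = 4.35e-04), where 1 array was still above background. In DKO no array was, and the fall was at least 1.77-fold (fitted log2 difference -1.15, adjusted p = 5.43e-05).

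Gadd45a, a growth arrest and DNA damage gene, and Sesn1, a sestrin that restrains mTORC1 signalling, were lower in both mutants and above background in all 9 arrays. Gadd45a read 9.34, 9.33 and 8.98 in WT, 8.76, 8.71 and 8.64 in Rb KO, then 8.59, 8.59 and 8.63 in DKO. It fell 1.43-fold in Rb KO (log2 -0.52, SE 0.098, adjusted p = 0.00319) and 1.53-fold in DKO (-0.61, adjusted p = 8.59e-04), and WT replicate 3 lay closest to the mutants. Sesn1 read 9.88, 9.97 and 9.75 in WT, 9.54, 9.61 and 9.57 in Rb KO, while the DKO arrays read 9.52, 9.56 and 9.49. It was 1.23-fold lower in Rb KO (log2 -0.30, SE 0.075, adjusted p = 0.0153) and 1.27-fold lower in DKO (-0.35, adjusted p = 0.00562). With the separation of positive from negative controls on each array as a covariate the Sesn1 calls ended (adjusted p = 0.105 and 0.0793), and in the fit of the 6 compared arrays alone the Rb KO call ended (0.051).

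Ccng1, which encodes cyclin G1 and is induced by p53 in many tissues, was called lower in Rb KO with an adjusted p near the threshold. Ccng1 read 10.67, 10.67 and 10.77 in WT, 10.02, 10.38 and 10.55 in Rb KO, then 10.32, 10.52 and 10.53 in DKO. No mutant array reached the WT range, and Rb KO replicate 1 was the lowest of all. The level was 1.31-fold lower in Rb KO (log2 -0.39, SE 0.123, adjusted p = 0.0407) and 1.19-fold lower in DKO (-0.25, adjusted p = 0.165). The Rb KO call was lost on dropping any 1 array of the WT group, Rb KO replicate 1, Rb KO replicate 2, DKO replicate 2 or DKO replicate 3 (adjusted p = 0.0546 to 0.11), and without Rb KO replicate 1 the log2 difference shrank to -0.24; other normalizations and fits that ended it gave 0.0574 to 0.161.

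The other 4 p53 targets with a listed probe set, Fas, Sesn2, Aen and Perp, were not called in any comparison. Apart from Fas, the 95% intervals of the targets not called in Rb KO reached from -0.41 (Perp) to 0.51 (Plk2). Perp, a membrane protein of desmosomes, read 7.28 to 7.79 in WT and 7.08 to 7.23 in DKO, below background throughout (fitted difference -0.35, SE 0.128, adjusted p = 0.0643). It passed the threshold without WT replicate 3 (adjusted p = 0.0182) or with a renewed quantile normalization (0.048). Fas, the death receptor for Fas ligand, had its brightest listed probe set on chromosome 17 while the gene lies on chromosome 19. That probe set read 9.26, 8.08 and 9.04 in WT, 8.37 to 8.57 in Rb KO and 8.67 to 8.76 in DKO, and WT replicate 2 alone lay below all mutant arrays. Without WT replicate 2 it was called lower in both mutants (adjusted p = 4.59e-04 and 0.00586). The Fas probe set on chromosome 19 read 4.70 to 4.92 in all arrays, below background, so Fas enters the counts by a probe set that may not measure it.

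A p53 half-site, the decamer that p53 binds in pairs, was present in the 250 bases before a start site of 4 called p53 targets. The windows come from the RefSeq promoter table of build GRCm38.p6, which held 26 of the 31 measured members; Trp63, Pmaip1, Perp, Tnfrsf10b and Bik had none there. The 4 windows are shown because they belong to 1 target that was called higher, Mdm2, and 3 that were called lower, Gadd45a, Sesn1 and Ccng1. Each is written 5′ to 3′ on the strand of its gene, and the capitals mark the half-site match found on either strand.
Mdm2, chr10:117710759-117711008, minus strand: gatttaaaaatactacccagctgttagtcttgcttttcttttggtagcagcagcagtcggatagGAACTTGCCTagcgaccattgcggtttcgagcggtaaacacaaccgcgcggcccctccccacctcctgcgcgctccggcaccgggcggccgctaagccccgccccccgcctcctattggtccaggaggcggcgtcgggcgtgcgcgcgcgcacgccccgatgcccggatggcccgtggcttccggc
Gadd45a, chr6:67037408-67037657, minus strand: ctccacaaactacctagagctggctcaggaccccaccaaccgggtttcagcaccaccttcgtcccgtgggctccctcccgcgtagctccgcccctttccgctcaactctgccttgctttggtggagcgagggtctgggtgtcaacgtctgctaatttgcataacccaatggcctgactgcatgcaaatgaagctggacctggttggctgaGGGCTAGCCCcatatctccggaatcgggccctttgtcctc
Sesn1, chr10:41887189-41887438, plus strand: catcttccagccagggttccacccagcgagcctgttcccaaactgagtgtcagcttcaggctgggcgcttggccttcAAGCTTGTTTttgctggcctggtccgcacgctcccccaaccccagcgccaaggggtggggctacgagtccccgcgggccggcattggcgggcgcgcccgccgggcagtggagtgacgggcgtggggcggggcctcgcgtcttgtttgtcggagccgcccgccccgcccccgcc
Ccng1, chr11:40755287-40755536, minus strand: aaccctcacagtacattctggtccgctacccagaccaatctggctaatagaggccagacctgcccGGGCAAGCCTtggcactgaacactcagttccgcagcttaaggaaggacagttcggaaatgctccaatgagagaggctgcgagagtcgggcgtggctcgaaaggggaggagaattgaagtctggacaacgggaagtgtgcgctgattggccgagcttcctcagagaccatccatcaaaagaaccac
The match began 186 bases before the start in Mdm2, 40 in Gadd45a, 173 in Sesn1 and 185 in Ccng1. The Sesn1 match lay in 1 of that gene's windows in the table and not in the other. Aen, which was not called, was the fifth measured member with a match, 121 bases before a start. Thus 5 of 26 measured members held a match, against 8.2% of the 27025 genes in the table, and a single half-site in such a window is a match of letters and not a shown binding site. The E2F words TTTCCCGC, TTTCGCGC, TTTGCCGC and TTTGGCGC, read on either strand, were found in 0 of the 26 measured members and in 2.157% of all genes. The windows of Trp73 and Apaf1 thus did not hold those letters either. Words this rare can be absent from any 26 genes, so their absence does not tell whether E2F acts on them.

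**Figure D2:**
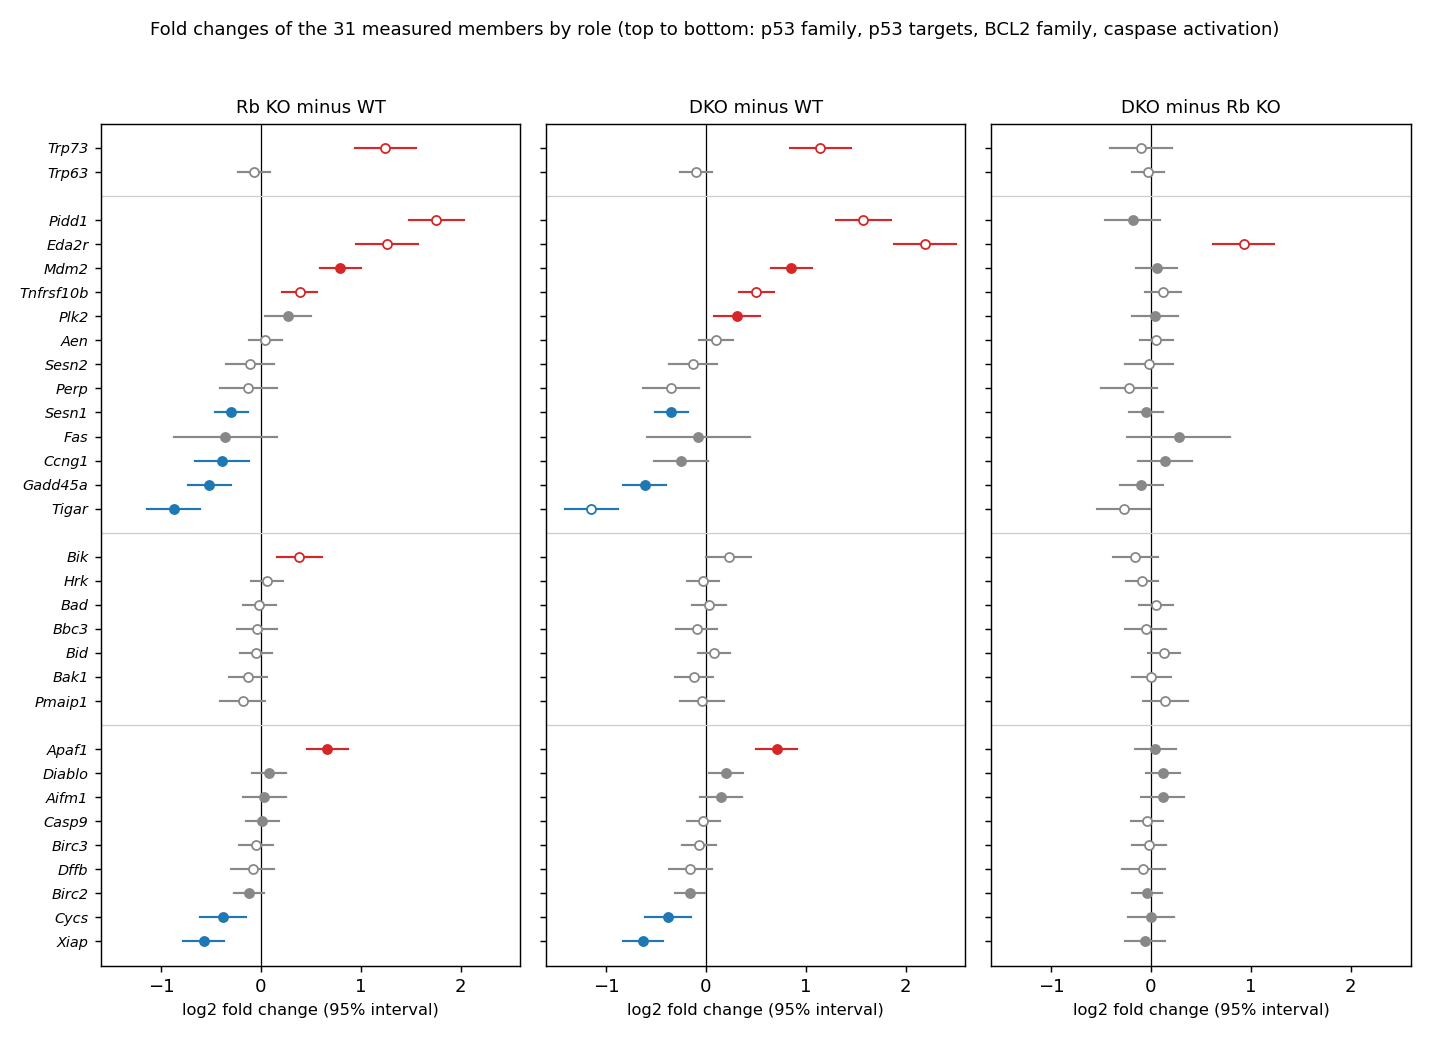
Log2 difference with its 95% interval (horizontal axes) for the 31 measured members (vertical axis), in order from p53 family to p53 targets, BCL2 family and caspase activation, in 3 panels for Rb KO against WT, DKO against WT and DKO against Rb KO. Red marks members called higher, blue called lower and grey not called. Open circles mark those in which the group of the comparison with the lower mean was below background in all 3 arrays. The p53 targets spread to both sides, BCL2 genes lie close to 0 apart from Bik, and in the right panel Eda2r alone is called.

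Readings of the death-promoting BCL2 genes differed little between the groups and were dim. Only 1 of the 7 measured was above background in any array, so small differences here do not show that expression was unchanged. Of the 7 measured, Bik alone was called, as higher in Rb KO; in DKO limma called 0 of the 7, and Bik was the 1 gene with an unadjusted p below 0.05. The median log2 difference of the 7 was -0.039 in Rb KO and -0.028 in DKO. Bik, a BH3-only protein of the endoplasmic reticulum, read 7.50, 7.17 and 7.29 in WT, 7.86, 7.67 and 7.57 in Rb KO, while the DKO arrays read 7.54, 7.50 and 7.60. The Rb KO arrays lay above all WT arrays, by a fitted 0.38 (SE 0.102, adjusted p = 0.0188), and the DKO arrays overlapped WT (0.23, adjusted p = 0.123). All of these readings are below background. The Rb KO call ended without WT replicate 3 (adjusted p = 0.0506), without Rb KO replicate 1 (0.0709) and with the control-separation covariate (0.11), and the DKO difference passed without WT replicate 1 (0.0449).

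The remaining 6 BCL2 genes were Bbc3, Pmaip1, Bid, Bad and Hrk, which encode BH3-only proteins, and Bak1, which encodes a pore-forming effector. Bbc3 and Pmaip1, better known as Puma and Noxa, are the members of this family most often cited as direct p53 targets. Bbc3 read 7.82 to 8.02 in WT, 7.87 to 7.93 in Rb KO and 7.67 to 7.98 in DKO, and Pmaip1 read 6.31 to 6.66, 6.18 to 6.30 and 6.34 to 6.48. Readings of the 6 genes ran from 6.18 to 8.02, and only Bbc3 was above background, in 1 array. In Rb KO their differences were -0.18 to 0.062, with 95% intervals from -0.41 (Pmaip1) to 0.23 (Hrk).

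Of the 9 genes of caspase activation and mitochondrial death, 1 was called higher and 2 lower in each mutant against WT, and the same 3 genes were called in both: Apaf1 rose, Xiap fell, and Cycs was lower at a probe set whose origin is uncertain. The median log2 difference of the 9 was -0.049 in Rb KO and -0.065 in DKO. Apaf1, the scaffold of the apoptosome, read 8.36, 8.43 and 8.26 in WT, 9, 9.19 and 8.86 in Rb KO, then 9.13, 9.03 and 9.02 in DKO. Every mutant array lay above every WT array, and 8 of the 9 arrays were above background. Its level was 1.59-fold higher in Rb KO (log2 0.67, SE 0.093, adjusted p = 4.98e-04) and 1.63-fold higher in DKO (0.71, adjusted p = 2.46e-04).

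Xiap, the inhibitor that binds active caspases directly, moved the opposite way. Xiap read 9.43, 9.30 and 9.51 in WT, 8.71, 8.84 and 8.96 in Rb KO, while the DKO arrays read 8.68, 8.88 and 8.77. No mutant array reached the lowest WT array, and the mutants overlapped each other. The level fell 1.49-fold in Rb KO (log2 -0.58, SE 0.092, adjusted p = 0.0011) and 1.55-fold in DKO (-0.63, adjusted p = 4.58e-04), and it was above background in all 9 arrays. The calls on Apaf1 and Xiap held in both mutants under every alternative that was run.

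Cycs encodes somatic cytochrome c and has processed copies elsewhere in the mouse genome. Its brightest listed probe set lies on chromosome 19, while the gene is on chromosome 6. That probe set read 11.23, 11.08 and 11.20 in WT, 10.53, 10.90 and 10.93 in Rb KO, then 10.72, 10.82 and 10.83 in DKO, lower than WT in all 6 mutant arrays by 1.3-fold in both mutants (log2 -0.38, SE 0.106, adjusted p = 0.0239 and 0.0201). The probe set on chromosome 6 read 10.55, 10.62 and 10.50 in WT, 10.29 to 10.51 in Rb KO and 10.38 to 10.48 in DKO, and was not called (log2 -0.15, adjusted p = 0.209, and -0.12, adjusted p = 0.304). The Rb KO call at the brightest probe set was also lost on dropping WT replicate 1, WT replicate 3 or Rb KO replicate 1 (0.0539 to 0.0787), with a log2 difference of -0.25 in the last case. The DKO call was lost on dropping WT replicate 1, WT replicate 3 or DKO replicate 1 (0.0526 to 0.0772), and other settings that ended either call gave 0.0512 to 0.125. With the chromosome 6 probe set in its place, 5 members were called lower in Rb KO and 4 in DKO.

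The other 6 genes of this group, Casp9, Diablo, Aifm1, Dffb, Birc2 and Birc3, were called in no comparison. Casp9, the initiator caspase that Apaf1 activates, read 8.18 to 8.39 in WT, 8.28 to 8.32 in Rb KO and 8.22 to 8.29 in DKO, at the edge of background. Aifm1, the mitochondrial apoptosis-inducing flavoprotein, was above background in all 9 arrays at 9.32 to 9.42, 9.19 to 9.58 and 9.51 to 9.56. Diablo, which displaces inhibitors from caspases, read 8.17, 8.36 and 8.26 in WT and 8.54, 8.46 and 8.39 in DKO (log2 0.20, SE 0.078, adjusted p = 0.0774), and passed the threshold without WT replicate 2 (0.0325) or with dim genes left out (0.0414). Birc2, an inhibitor of apoptosis that ubiquitinates RIP kinases, read 8.80 to 8.86 in WT, 8.65 to 8.76 in Rb KO and 8.65 to 8.70 in DKO, with no overlap but no call (log2 -0.16 in DKO, adjusted p = 0.108). Dffb, the nuclease that cuts DNA between nucleosomes, and Birc3 were below background throughout. In Rb KO the 6 differences were -0.12 to 0.081, and their 95% intervals ran from -0.30 to 0.25; in DKO the intervals ran from -0.37 to 0.37.

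**Figure D3:**
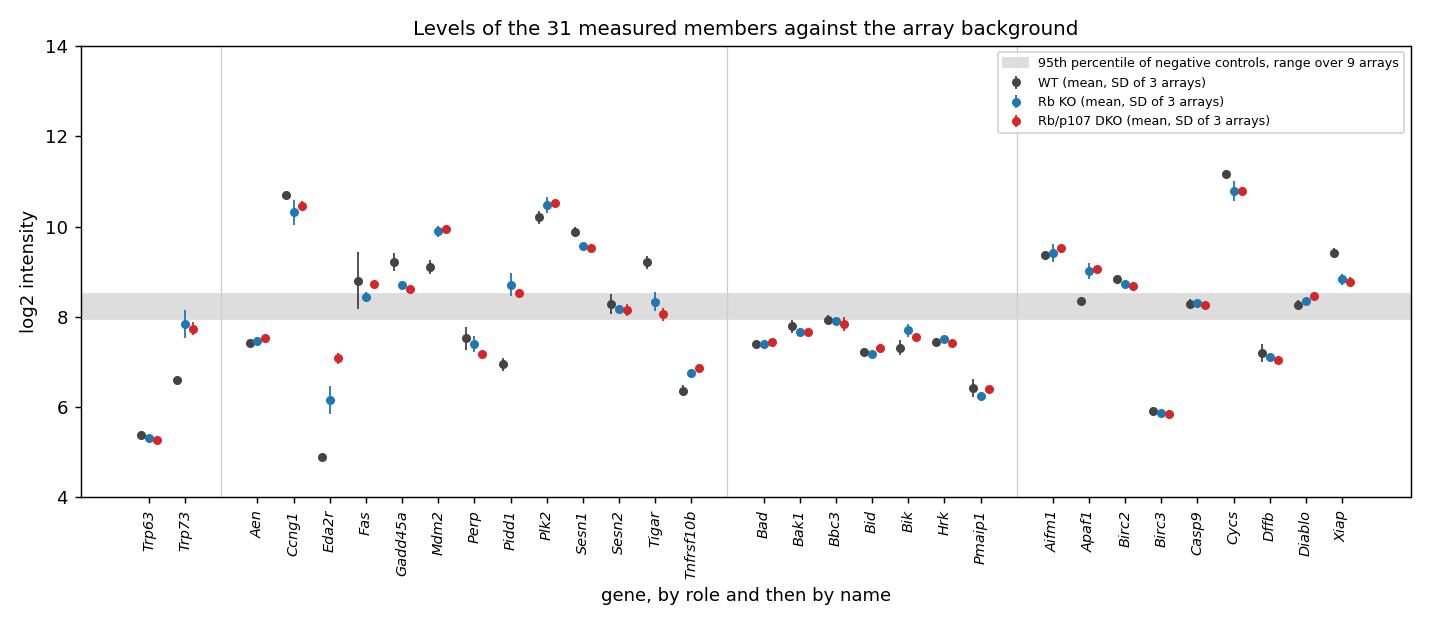
Mean log2 intensity (vertical axis) of each measured member (horizontal axis, by role and then by name) in WT, Rb KO and DKO, with error bars for the SD of 3 arrays and a grey band for the range of the background percentile over the 9 arrays (7.94 to 8.5). All BCL2 family genes lie at or below the band, and most called p53 targets and caspase factors lie above it in at least 1 group; intensities of different genes come from different probes and cannot be ranked.

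Between the mutants, which differ in p107, 1 measured member was called. In DKO against Rb KO, Eda2r was called higher and no member lower in limma, where 1.28% of all genes were called higher and 1.19% lower; at an unadjusted p below 0.05 there were 1 higher and 1 lower. The counts over all genes behind these shares were 316 higher and 295 lower. They fell to 98 and 153 without DKO replicate 3, and to 116 and 155 without DKO replicate 1. Dropping Rb KO replicate 1 gave 109 and 178, and dropping Rb KO replicate 3 gave 118 and 183. Without WT replicate 2 they rose to 460 and 406. Eda2r stayed the 1 member called in each of these. The Eda2r readings given above, at most 6.52 in Rb KO and at least 6.95 in DKO, gave a fitted difference of 0.93 (SE 0.139, adjusted p = 0.0059, with a range of 0.00105 to 0.0358 over the alternatives that tested it). The DKO arrays were all higher, but every one of these readings is below background. Tigar was the member lower at the unadjusted p, with a difference of -0.28 (SE 0.12, adjusted p = 0.339) and no overlap between the groups. Over the 30 members not called the differences were -0.28 to 0.28, with a median over all 31 of -0.016 beside -0.003 over all genes. Apart from Fas, the 95% intervals reached from -0.54 (Tigar) to 0.41 (Ccng1). This comparison is also the test of whether the differences from WT depart between the mutants, so the single-mutant calls of Ccng1, Bik and Plk2 were not shown to differ between them (adjusted p = 0.747, 0.609 and 0.962).

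Genes of the same pathways outside the 35 were read from lists of named genes, drawn up with the same knowledge. Of 10 measured further p53 targets, among 17 listed, Cdkn1a was the 1 called against WT in either mutant. Cdkn1a encodes p21, the cyclin-dependent kinase inhibitor through which p53 arrests the cell cycle. It read 8.70, 8.79 and 8.48 in WT, 11.46, 11.37 and 11.22 in Rb KO, while the DKO arrays read 11.17, 10.88 and 11.09. The rise was 6.47-fold in Rb KO (log2 2.70, SE 0.108, adjusted p = 7.56e-08) and 5.25-fold in DKO (2.39, adjusted p = 1.06e-07). Over the 10 further targets the median log2 difference was -0.04 in Rb KO and -0.024 in DKO.

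Of the 11 measured regulators of p53, among 14 listed, 6 were called higher in each mutant against WT and 5 were not called. The 6 were not all the same genes in both mutants. The median log2 difference of the 11 was 0.25 in Rb KO and 0.32 in DKO. Chek1, a checkpoint kinase of the replication stress response, read 5.59, 5.64 and 5.40 in WT, 8.49, 9.12 and 8.67 in Rb KO, then 9.29, 9.12 and 9.18 in DKO. No WT array was above background, and the rise was at least 1.52-fold in Rb KO and at least 2.07-fold in DKO (adjusted p = 1.34e-07 and 4.67e-08). Between the mutants its adjusted p was 0.161, and 0.0178 without Rb KO replicate 2. Atm, the kinase that signals double-strand breaks to p53, rose at least 1.38-fold and at least 1.54-fold (adjusted p = 1.90e-04 and 4.28e-05). Chek2 and Pml were also called higher but were below background in all 9 arrays. Chek2 was called between the mutants too (fitted 0.74, SE 0.138, adjusted p = 0.0201), and this was lost on dropping replicate 1 or replicate 3 of either mutant (0.0595 to 0.0928). The cycling-cell genes were higher in the same 6 arrays, and their part in these rises was not tested.

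Other caspases, adaptors and inhibitors gave few calls above background. Casp2, the caspase activated on Pidd1, was above background in all 9 arrays and read 8.61, 8.61 and 8.58 in WT, 9.57, 9.76 and 9.43 in Rb KO, while the DKO arrays read 9.98, 9.89 and 9.81. It rose 1.98-fold in Rb KO (log2 0.99, SE 0.09, adjusted p = 2.96e-05) and 2.45-fold in DKO (1.29, adjusted p = 2.49e-06), and was the 1 of 5 measured further caspases called in Rb KO. Casp1, of the inflammasome, was called higher in DKO at background readings (adjusted p = 0.0109). Its adjusted p was 0.0748 in Rb KO and 0.677 between the mutants. The Rb KO difference passed without WT replicate 2 (0.04) or DKO replicate 3 (0.0193), in the fit of the compared arrays alone (0.0311) and with the covariate (0.029). Of 6 measured death receptor genes, Cradd, the adaptor between Pidd1 and Casp2, and Tnfrsf1a, a receptor for TNF, were called higher in DKO below background, with an adjusted p of 0.0761 and 0.0539 in Rb KO. The Rb KO difference passed without WT replicate 2 for both (0.0114 and 0.0134), and for Tnfrsf1a also without Rb KO replicate 3 (0.0478), with a renewed quantile normalization (0.0484) and with the covariate (0.0241). The Cradd call (adjusted p = 0.0135) ended without WT replicate 1 or DKO replicate 1 (0.0537 and 0.0507). The Tnfrsf1a call (0.0343) was lost on dropping WT replicate 1, WT replicate 3, Rb KO replicate 2 or any 1 array of the DKO group (0.0501 to 0.115). It was also lost in the fit of the compared arrays alone (0.0517).

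The list of other BCL2 family genes included guardians of the mitochondrial membrane. Bcl2, Bcl2l1 and Mcl1 among them were not analysed here. Of 6 measured among 12 listed, Bcl2l2, a pro-survival member also called Bcl-w, was called lower in both mutants. It read 8.44, 8.44 and 8.31 in WT, 7.99, 7.94 and 8.06 in Rb KO, then 7.95, 8.05 and 8.03 in DKO, where no mutant array was above background (adjusted p = 0.00262 and 0.00241). Bnip3, a mitophagy receptor that hypoxia induces, was called higher in DKO. It read 9.94, 9.92 and 9.74 in WT, 9.75, 9.73 and 9.69 in Rb KO, while the DKO arrays read 10.58, 10.11 and 10.51. Its rise was 1.45-fold against WT (log2 0.53, SE 0.115, adjusted p = 0.00522) and 1.6-fold against Rb KO (0.68, adjusted p = 0.0118). The call between the mutants was lost on dropping replicate 1 or replicate 3 of either one (0.0512 to 0.0647).

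Among 8 measured further inhibitors of apoptosis and execution genes, Birc5 was called higher in both mutants, Dffa lower in both and Naip6 higher in DKO. Birc5, or survivin, which acts mainly in chromosome segregation, read 6.80, 6.34 and 6.57 in WT and 7.71 to 8.17 in the 6 mutant arrays, below background in all (adjusted p = 3.75e-05 and 9.07e-06). Dffa, which holds the nuclease Dffb inactive, fell 1.16-fold and 1.14-fold (adjusted p = 0.0316 and 0.0416). The Rb KO call on Dffa was lost on dropping any 1 array other than WT replicate 2 and Rb KO replicate 1 (0.0526 to 0.105). The DKO call was lost on dropping any 1 array other than Rb KO replicate 1 (0.0549 to 0.133). The replicate block ended both calls (0.061 and 0.0755), as did the covariate (0.0998 and 0.157) and the fit of the compared arrays alone (0.105 and 0.0593). Shifting each array to a common median also ended the DKO call (0.058). Naip6 was below background, and its call (0.041) was lost on dropping WT replicate 2, Rb KO replicate 1 or any 1 array of the DKO group (0.0552 to 0.12). It was also lost with the replicate block (0.056), with the covariate (0.322) and in the fit of the compared arrays alone (0.0541).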

How the data were processed

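Total RNA with an integrity score above 8 was amplified, labelled with biotin and hybridized, per the labels' protocols. The deposited values are log2 intensities per probe set, made by the authors with RMA (named in the submitters' processing notes); its version and the annotation's build are not given in the sources used here. Of 52917 transcript clusters, 24646 had 1 listed gene symbol, 1795 several and 26476 none. Older symbols were updated through gene IDs (654 symbols, Tigar among them), and 475 probe sets whose symbols all named 1 gene, such as Pidd1, were kept; the others with several symbols were left out. Names were matched to a RefSeq table of GRCm38.p6, which held 24473 of the 24727 genes.

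All 9 arrays were fitted to 3 group means in limma 3.58.1 (R 4.3.3; 6 residual degrees of freedom), and genes were called at a Benjamini-Hochberg adjusted p below 0.05 over all genes. SE denotes the standard error of each log2 difference, and intervals are at 95%. Members with a call in any comparison are named with every array, the others by their range with up to 2 more values per role, and up to 4 called genes of each further list. The number of arrays (3 per group) limits the precision. Each p-value sets a group difference against the spread of these arrays within groups, which limma moderates over all genes (4.713 prior degrees of freedom). The intervals use the residual and prior degrees of freedom together. "At least" folds set the higher group's mean against the larger of the background percentile and the reading on each array of the lower group. Alternatives changed the probe sets, normalization, dim-gene filter, variance model, arrays in the fit, a covariate (the separation of positive from negative controls), the replicate block and each array left out. The fit was tested on simulated arrays with known differences and independent normal noise. These hold no odd arrays or shared shifts between arrays, so that test does not bear on such features. Members and lists were chosen with earlier results of these data known. Figures were drawn with matplotlib 3.10.9.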

Additional observations from a re-analysis of the deposited data

How the results depend on the processing

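Across the alternatives, 9 of the 13 members called in Rb KO against WT, 9 of the 12 called in DKO against WT, and Eda2r between the mutants kept their call in each alternative that tested them; no called difference changed sign. Leaving out dim genes (above background in fewer than 3 arrays) reduced the members called higher from 7 to 4 in Rb KO, from 7 to 5 in DKO and from 1 to 0 in DKO against Rb KO. Called members below background were then not tested, while Plk2 gained a call in Rb KO (adjusted p = 0.0399) and Diablo in DKO (0.0414). Members called lower in Rb KO went from 6 to 3 when only the compared arrays were fitted and to 3 with the control-separation covariate. The covariate also took those called lower in DKO from 5 to 3. It was highest in WT replicates 1 and 2, so it cannot be fully told apart from group, and the cause was not tested. With each array left out in turn, the members called higher and lower were 6 to 8 and 4 to 6 in Rb KO, 6 to 8 and 4 to 6 in DKO, and 1 and 0 between the mutants.

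No pairing by replicate number was visible. Deviations of same-numbered arrays correlated at -0.158 to 0.149, within the -0.327 to 0.244 of differently numbered arrays. With 3 arrays per group these values cannot show that the samples were unpaired. With the replicate block the counts were 7 higher and 6 lower in Rb KO, 6 and 5 in DKO, and 1 and 0 between the mutants, with Plk2 in DKO the member that lost its call; outside the members, Dffa lost its call in both mutants and Naip6 in DKO. Over all genes the block took the calls between the mutants from 316 higher and 295 lower to 208 and 230. Genes called lower against WT went from 3471 in Rb KO and 4170 in DKO to 2229 and 2507 with the covariate, and to 2172 and 2252 with dim genes left out. Of 2 alternatives chosen after seeing the data, using the probe set on a gene's own chromosome gave 5 lower in Rb KO and 4 in DKO, and using only probe sets with 1 listed symbol gave 6 higher in each, as Pidd1 was then not measured. Signal over background is the main limit: for the 14 members below background in all arrays these data give no measured fold.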
